A study of Mus musculus with 4 samples.

Results

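The genes described here are 38 genes of cholesterol and fatty acid synthesis, of its control, and of sterol transport and storage, listed by symbol, of 18193 genes with a single-symbol probe set on the array. Probe sets were found for 36 of them, 85 in all, and each gene was read from the probe set with the highest mean log2 signal. Acat2, a thiolase at the head of the pathway, and Soat1, which esterifies cholesterol for storage, had none in the table given and were not analysed here. By role, 17 analysed genes act in sterol synthesis, 5 control the SREBP transcription factors, 9 act in fatty acid synthesis, and 5 export or move sterols.

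The series followed mouse bone marrow cells without lineage markers and with Sca-1 and c-kit on their surface (LSK cells, among which are the blood stem cells), in search of genes through which β-catenin acts in their immortalization. The 4 groups were LSK cells carrying a β-catenin retrovirus at day 3, LSK cells carrying an eGFP retrovirus at day 3, and DKmix cells, β-catenin-transduced LSK cells held in culture, at day 50 and at day 300. The labels give the same medium for all of them, IMDM with 10% fetal calf serum and the cytokines IL-11, IL-3, Flt3 and SCF. They do not say how many animals or cultures went into a sample. Each group is 1 array, so every ratio is a difference between 2 arrays, with no replicate check and no p-value. Serum supplies cholesterol and fatty acids to cultured cells.

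Cells build cholesterol from acetyl-CoA through mevalonate, farnesyl diphosphate, squalene and lanosterol. When membrane sterol is low, SCAP carries the SREBP factors from the endoplasmic reticulum to the Golgi, where they are cleaved and released to the nucleus to switch on synthesis genes, and INSIG proteins hold SCAP back when sterol is plentiful. SREBF1 products act mainly on fatty acid genes and SREBF2 products mainly on sterol genes, while the transporters ABCA1 and ABCG1 are induced by oxysterol receptors and carry cholesterol out of the cell. In dividing blood cells the products go into new membranes, and polyunsaturated fatty acids are also the source of lipid mediators.

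The arrays differed in more than the lipid genes. Kit, a defining LSK marker, was at 82.9 and 55.8 on the β-catenin and eGFP day 3 arrays, near the floor of 48.3 under which an intensity counted as not measured, and Flt3 was under the floor on all 4 arrays. Of 10 mast cell markers, all were 2-fold or more higher at DKmix day 50 than on β-catenin day 3 and 9 were at day 300, with summed intensities of 182918 and 80329, against 4448 and 833.5 on the β-catenin and eGFP day 3 arrays. Of 7 stem and progenitor markers 4 had a probe set, and their sum was 5676 and 5597 on the DKmix arrays, against 1568 with β-catenin and 342.7 with eGFP. Kit, also a mast cell marker, and Cd34 carried it on the DKmix arrays, while Eng was at 132.3 and 18.5 there, against 633.5 with β-catenin and 129.4 with eGFP. Of 5 genes listed for stromal, hepatic or fat cells, between 1 and 4 were above the floor on an array, with sums between 425.7 and 816.5. Pecam1 was the brightest of the list on every array and made up 743 of the 816.5, the sum for DKmix day 300. Col1a1, Pdgfrb, Alb and Adipoq were all under the floor there. The higher sum is therefore not read as a sign of stromal, hepatic or fat cells. The summed intensity of 8 macrophage and dendritic cell markers was 488.7 at DKmix day 50 and 332.1 at day 300, against 23350 on β-catenin day 3 and 32841 on eGFP day 3. That of 9 neutrophil markers was 331 and 195.2 on the DKmix arrays, against 8741 with β-catenin and 86734 with eGFP. The 3′ to 5′ signal ratio of Gapdh, a measure of RNA and labelling quality, at day 3 was 1.18 for β-catenin against 4.14 for eGFP, then 4.96 in DKmix cells at day 50 and 1.06 in DKmix cells at day 300. The same ratio for β-actin was 1.32 and 1.83 for β-catenin and eGFP at day 3, then 3.41 at day 50 and 1.20 at day 300. The DKmix day 300 and β-catenin day 3 arrays were alike in both ratios. DKmix day 50 and eGFP day 3 were alike for Gapdh and differed for β-actin. All 36 genes were above the floor on all 4 arrays, so none of their ratios is a bound. In such bulk samples, a change in the kinds of cell and a change in RNA per cell cannot be told apart, and the part of cell makeup in the ratios below was not tested.

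**Figure D1:**
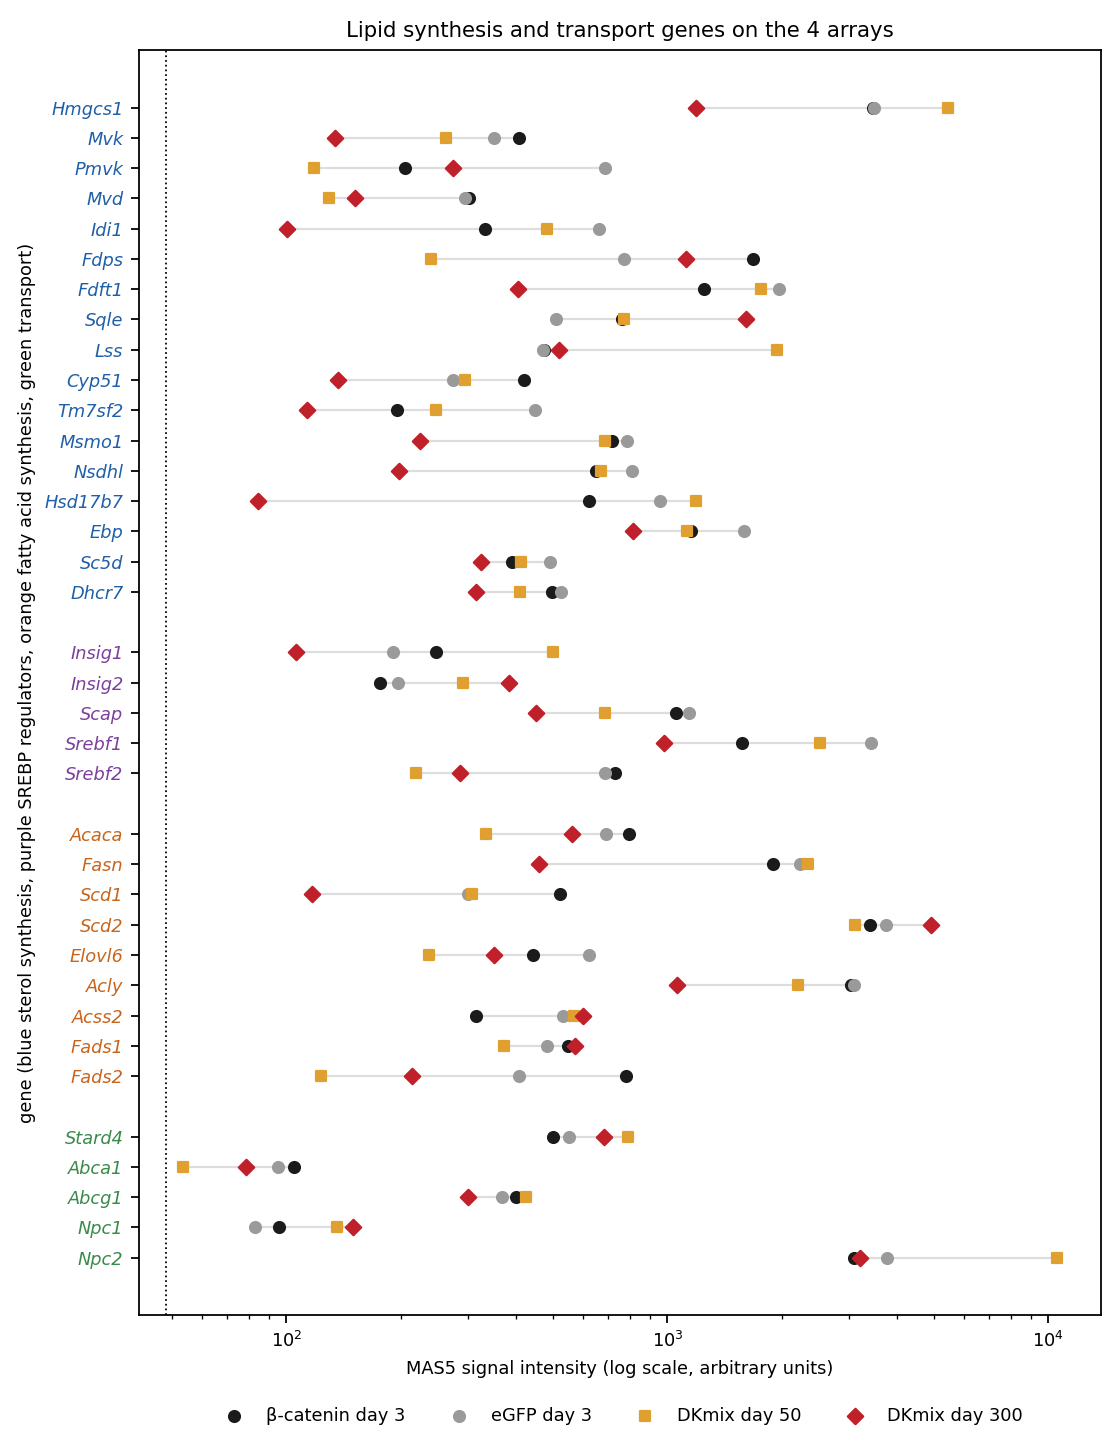
MAS5 signal intensity (log axis, arbitrary units) of each of the 36 genes, 1 marker per array, with the floor of 48.3 as a dotted line and gene names coloured by class. The DKmix day 300 marker is the lowest of the 4 for 12 of the 17 sterol synthesis genes, and Sqle runs the other way. Positions compare arrays within a gene, not genes with each other.

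The clearest contrast was at day 300, where the sterol pathway was low. Of the 36 genes, 15 were 2-fold or more lower on the DKmix day 300 array than on β-catenin day 3, and 2 were higher. Over all measured genes the shares were 14.4% lower and 14% higher, while among the lipid genes they were 41.7% lower and 5.56% higher. The 17 sterol synthesis genes had 8 lower and 1 higher, with a median log2 ratio of -0.99, beside -0.08 over all 12664 measured genes. The fatty acid genes had 4 of 9 lower and 0 higher (median -0.50), the SREBP regulators 3 of 5 lower and 1 higher (median -1.22, but -0.52 with the mean of all probe sets and 0.45 with the second brightest), and the transport genes 0 of 5 past 2-fold in either direction (median 0.05). The closest genes on either side of the 2-fold line were Sqle (log2 ratio 1.08) inside it and Mvd (-0.99) outside it. With the arrays scaled on their hybridisation controls, the median of all genes became -0.90 in this comparison. The lipid genes then had 26 lower and 0 higher, beside 6035 lower and 558 higher over all genes, and the sterol median became -2.04. By the second brightest probe set, which 26 of the 36 genes have, 7 were lower and 0 higher. Over all genes, 791 were lower and 773 higher of 5761 measured in this way.

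**Figure D2:**
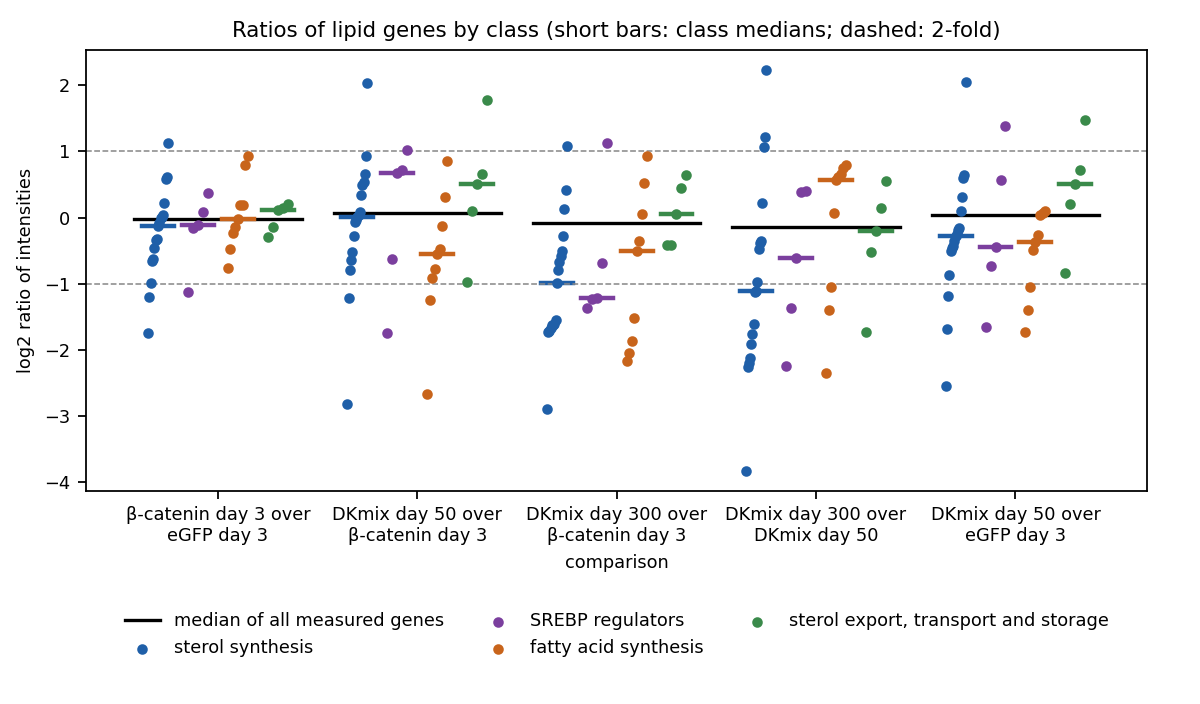
Log2 ratio of intensities for each gene in 5 comparisons, coloured by class, with class medians as short bars, the median of all measured genes as a black line and 2-fold as dashed lines. In DKmix day 300 over β-catenin day 3 the sterol synthesis median lies at -0.99 and the all-gene median at -0.08, and in DKmix day 50 over β-catenin day 3 both lie near 0 (0.02 and 0.07).

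At the start of the sterol pathway, Hmgcs1, which joins acetoacetyl-CoA and acetyl-CoA to HMG-CoA, gave 3465 on β-catenin day 3, 3476 on eGFP day 3, 5457 at DKmix day 50 and 1190 at DKmix day 300. The 2 day 3 arrays were level, day 50 was the highest and day 300 the lowest, 2.91-fold below β-catenin day 3. Of its other 4 probe sets, 3 had day 300 log2 ratios of -1.47, -0.87 and -0.65, and in the dimmest DKmix day 300 was under the floor. At day 50 they split: Hmgcs1 by the brightest probe set had a log2 ratio of 0.66, and the next brightest had -1.20. Mvk, mevalonate kinase, gave 408.4 with β-catenin and 351.5 with eGFP, then 262.0 at day 50 and 133.9 at day 300, where it was 3.05-fold below β-catenin day 3.

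Pmvk and Mvd, the kinase and decarboxylase that follow, behaved otherwise. Pmvk gave 205.4 with β-catenin, 687.8 with eGFP, 118.2 at day 50 and 274.4 at day 300, so the eGFP array stood above all others and day 300 was within 2-fold of β-catenin day 3 (log2 ratio 0.42). Mvd gave 301.7, 294.4, 129.5 and 151.7 in the same order of arrays, and both DKmix values were below both day 3 values. Its day 50 value was 2.33-fold and its day 300 value 1.99-fold below β-catenin day 3. That probe set has the _s suffix, and the other Mvd probe set gave 249.8, 137.4, 5.3 and 211.1, with day 300 above eGFP day 3 and day 50 under the floor.

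Idi1, the isomerase that makes dimethylallyl diphosphate, gave 332.8 with β-catenin, 660.3 with eGFP, 482.1 at day 50 and 100.4 at day 300. Day 300 was the lowest array and lay 3.31-fold below β-catenin day 3. Fdps, which makes farnesyl diphosphate for sterols and for protein prenylation, gave 1675 and 768.2 at day 3 with β-catenin and eGFP, 239.0 at day 50 and 1120 at day 300. Its low point was day 50 (7.01-fold below β-catenin day 3), and day 300 was within 2-fold of β-catenin day 3 (log2 ratio -0.58). The order of its 4 values is the reverse of the order of the Gapdh ratios except between β-catenin day 3 and DKmix day 300, and the part of RNA quality in it was not tested.

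At the squalene steps the neighbouring enzymes parted. Fdft1, squalene synthase, gave 1248 with β-catenin, 1969 with eGFP, 1763 at day 50 and 405.0 at day 300, which was 3.08-fold below β-catenin day 3. Its second probe set, without the _x suffix that marks probes matching other transcripts too, had a smaller log2 ratio in the same direction, -0.51 against -1.62. Sqle, squalene epoxidase, a rate-limiting oxygen-dependent step, gave 760.9, 509.1, 769.6 and 1609 in the order β-catenin, eGFP, day 50 and day 300. Day 300 was the highest array, 2.11-fold above β-catenin day 3 and 2.09-fold above day 50, and Sqle was the 1 sterol synthesis gene 2-fold higher at day 300 than on β-catenin day 3. Sqle had 1 probe set, and on the hybridisation control scale its day 300 log2 ratio against β-catenin day 3 was 0.04.

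Lss, lanosterol synthase, stood out at day 50 instead. Its brightest probe set, with the _s suffix, gave 475.1 with β-catenin, 471.7 with eGFP, 1945 at day 50 and 518.5 at day 300. By it 3 arrays were level and day 50 lay 4.09-fold above β-catenin day 3. The other Lss probe sets gave day 50 log2 ratios of 0.37 and, with β-catenin day 3 at the floor, at least 2.11. They were not level on the 3 remaining arrays. With β-catenin, with eGFP and at day 300 they gave 146.7, 62.9 and 39.5, and 24.6, 92.7 and 82.2.

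From lanosterol onward, 4 genes were 2-fold or more lower at day 300 than on β-catenin day 3 and the other 4 were within 2-fold. Cyp51, the lanosterol demethylase, gave 421.7 with β-catenin, 274.4 with eGFP, 294.1 at day 50 and 136.8 at day 300. Msmo1, the C-4 methyl oxidase, gave 717.0, 782.2, 685.7 and 224.9 in that order, and Nsdhl, the dehydrogenase that acts with it, gave 647.8, 806.6, 668.5 and 197.6. In each of these genes day 300 was the lowest array, 3.08-fold, 3.19-fold and 3.28-fold below β-catenin day 3. Hsd17b7, the keto-reductase of the same complex, gave 623.4 with β-catenin, 957.8 with eGFP, 1192 at day 50 and 84.2 at day 300, 7.40-fold below β-catenin day 3. That value comes from an _x probe set, and the next brightest had a day 300 log2 ratio of -0.95. In its other 2 probe sets, both dim, DKmix day 300 was under the floor, and the ratios were at most -0.70 and -0.31.

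Tm7sf2, a sterol C-14 reductase, gave 195.6 with β-catenin, 449.6 with eGFP, 247.4 at day 50 and 113.4 at day 300. Its day 300 value was within 2-fold of β-catenin day 3 (log2 ratio -0.79). The last enzymes differed least: Ebp, Sc5d and Dhcr7, which isomerize, desaturate and reduce the sterol ring, had day 300 log2 ratios of -0.51, -0.27 and -0.67 and passed 2-fold in none of the 5 comparisons. By the brightest probe sets day 300 was still the lowest of the 4 arrays for all 3 of them. In the other Sc5d probe sets, both dimmer, day 300 was instead the highest array. There it gave 113.5 against 79.8 with β-catenin, and 51.4 with all other arrays under the floor. In all, by the brightest probe sets, day 300 was the lowest array for 12 of the 17 sterol synthesis genes (70.6%). The share was 28.9% of all genes above the floor on any array. No such count was made with other probe sets.

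Promoter sequence is shown for members that were low together at day 300, since SREBP factors act at proximal promoters with NF-Y and Sp1. RefSeq windows of 300 bases, 250 before to 50 after the start (build GRCm38.p6), were found for 29 of the 38 genes. The letters CCAAT, the NF-Y box, searched on both strands, were in 14 of 15 sterol synthesis genes (93.3%), beside 41.1% of all 27025 genes in the table. The Sp1 box GGGCGG was in 14 of 15 too, beside 38.2%. The letters TCACNCCAC, a form of the sterol regulatory element, were in 1 of the 15, Hmgcs1, beside 1.44% of all genes. These windows had a median GC content of 60.8% in sterol synthesis genes and 52.7% over the table, and a match is a description of the letters only. CCAAT was also in sterol synthesis genes within 2-fold of β-catenin day 3 at day 300: Pmvk, Mvd, Lss, Tm7sf2, Ebp, Sc5d and Dhcr7. It was in Insig2, which was higher at day 300, and not in Fads2 and Scap, which were lower. The letters thus do not set the low genes apart. The windows below are Hmgcs1 at chr13:119690101-119690400 (+ strand), Mvk at chr5:114444019-114444318 (+), Nsdhl at chrX:72918271-72918570 (+) and Fasn at chr11:120824498-120824797 (- strand), read 5′ to 3′ on the gene's strand. Capitals mark CCAAT on either strand and, in Hmgcs1, the 9 letters TCACCCCAC, which begin 137 bases before the start and overlap no CCAAT.
Hmgcs1: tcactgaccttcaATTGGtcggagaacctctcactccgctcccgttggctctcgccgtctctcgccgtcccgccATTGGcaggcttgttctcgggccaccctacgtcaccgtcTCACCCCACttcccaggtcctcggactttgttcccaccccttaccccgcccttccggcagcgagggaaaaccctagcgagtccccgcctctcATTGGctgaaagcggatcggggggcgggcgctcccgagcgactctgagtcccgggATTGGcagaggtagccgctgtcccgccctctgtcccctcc
Mvk: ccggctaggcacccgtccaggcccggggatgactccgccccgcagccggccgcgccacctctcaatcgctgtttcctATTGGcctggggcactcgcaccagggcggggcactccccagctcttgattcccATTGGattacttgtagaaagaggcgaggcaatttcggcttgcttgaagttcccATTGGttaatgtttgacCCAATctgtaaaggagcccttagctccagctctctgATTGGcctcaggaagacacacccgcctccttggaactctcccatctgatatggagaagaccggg
Nsdhl: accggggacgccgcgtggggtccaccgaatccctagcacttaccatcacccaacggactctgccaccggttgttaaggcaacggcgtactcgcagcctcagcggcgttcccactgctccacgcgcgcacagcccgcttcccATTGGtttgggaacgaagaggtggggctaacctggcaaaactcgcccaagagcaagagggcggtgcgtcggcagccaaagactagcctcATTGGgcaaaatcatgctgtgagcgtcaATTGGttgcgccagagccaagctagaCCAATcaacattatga
Fasn: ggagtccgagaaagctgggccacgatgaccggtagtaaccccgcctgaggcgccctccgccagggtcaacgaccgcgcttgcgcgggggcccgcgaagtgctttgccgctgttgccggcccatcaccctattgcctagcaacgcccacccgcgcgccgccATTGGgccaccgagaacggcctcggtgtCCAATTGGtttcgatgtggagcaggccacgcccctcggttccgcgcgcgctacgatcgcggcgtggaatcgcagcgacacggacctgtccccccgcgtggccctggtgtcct
The Hmgcs1 window holds 4 CCAAT matches, Mvk 5, Nsdhl 4 and Fasn 3, the last with 2 that overlap each other.

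The genes that control the SREBP factors differed in direction. Srebf2, the precursor of the main sterol gene activator, gave 730.7 with β-catenin, 687.0 with eGFP, 218.4 at day 50 and 285.1 at day 300. Both DKmix values lay under both day 3 values, 3.35-fold and 2.56-fold below β-catenin day 3. It was the 1 gene of the 36 for which the higher DKmix value was 2-fold or more under the lower day 3 value, beside 2.68% of all genes, and 0 were 2-fold or more above, beside 2.78%. A second Srebf2 probe set gave 282.8 and 133.8 at day 3 and 167.8 and 353.6 on the DKmix arrays, and had a day 300 log2 ratio of 0.32, so the probe sets disagree in direction.

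Srebf1, the precursor of the main fatty acid gene activator, gave 1567 with β-catenin, 3433 with eGFP, 2514 at day 50 and 979.2 at day 300. The β-catenin array was 2.19-fold below eGFP at day 3, and day 300 was 2.57-fold below day 50. Scap, the SREBP escort, gave 1056 with β-catenin, 1139 with eGFP, 687.0 at day 50 and 451.1 at day 300, which was 2.34-fold below β-catenin day 3. The day 3 arrays were level and the DKmix arrays were both lower. Its other probe set was under the floor on all 4 arrays.

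The INSIG genes went opposite ways at day 300. Insig1, itself a classical SREBP target, gave 247.4 with β-catenin, 191.0 with eGFP, 500.2 at day 50 and 106.3 at day 300. It was 2.02-fold above β-catenin day 3 at day 50 and 2.33-fold below it at day 300, a 4.71-fold difference between the DKmix arrays. Insig2, whose protein does the same work but is not induced by SREBP, gave 176.4, 196.3, 291.5 and 383.9 in the order β-catenin, eGFP, day 50 and day 300. Its day 300 value was 2.18-fold above β-catenin day 3, and a second Insig2 probe set had a log2 ratio of 0.57. On the hybridisation control scale the Insig2 ratio was 0.08.

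Among the fatty acid genes, Acly, Fasn, Scd1 and Fads2 were 2-fold or more lower at day 300 than on β-catenin day 3. Acly, ATP-citrate lyase, which makes cytosolic acetyl-CoA, gave 3038 with β-catenin, 3081 with eGFP, 2197 at day 50 and 1060 at day 300, 2.87-fold below β-catenin day 3. Its other probe sets above the floor there had log2 ratios of -0.88 and -0.82. Fasn, fatty acid synthase, gave 1894, 2234, 2342 and 460.1 in that order, so 3 arrays were alike and day 300 was 4.12-fold below β-catenin day 3 and 5.09-fold below day 50. Scd1, a stearoyl-CoA desaturase, gave 522.4, 299.5, 306.5 and 116.7, and was 4.48-fold below β-catenin day 3 at day 300.

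Its paralog Scd2 did not follow. It gave 3407 with β-catenin, 3740 with eGFP, 3108 at day 50 and 4921 at day 300, and day 300 was the highest array for all 3 Scd2 probe sets. Their day 300 log2 ratios against β-catenin day 3 were 0.53, 0.45 and 0.30, short of 2-fold, where the 2 Scd1 probe sets had -2.16 and at most -1.08, the second with DKmix day 300 at the floor. At day 50 the Scd2 probe sets had log2 ratios between -1.43 and -0.13 against β-catenin day 3, and against eGFP day 3 between -0.27 and -0.16.

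Acaca, acetyl-CoA carboxylase, which commits carbon to fatty acids, gave 793.1 with β-catenin, 691.2 with eGFP, 334.9 at day 50 and 562.1 at day 300. Its low point was day 50, 2.37-fold below β-catenin day 3. Fads2, the first desaturase of polyunsaturated fatty acids, gave 780.4, 408.5, 123.5 and 213.7 in that order of arrays, and both DKmix values lay under both day 3 values. It was 6.32-fold below β-catenin day 3 at day 50 and 3.65-fold at day 300, and the day 50 value was 3.31-fold below eGFP day 3. Its partner Fads1, a later desaturase, gave 549.7, 482.1, 373.7 and 572.8, with no comparison past 2-fold. A dimmer Fads1 probe set gave 79.7, 72.1, 150.6 and 52.4. Its day 50 value was 2.09-fold above eGFP day 3, and its day 300 value 2.87-fold below day 50.

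Elovl6, which elongates palmitate, gave 445.1 with β-catenin, 621.1 with eGFP, 236.4 at day 50 and 350.0 at day 300, and was 2.63-fold lower at day 50 than on eGFP day 3. Acss2, which makes acetyl-CoA from acetate, gave 314.7, 531.9, 568.4 and 599.8, and the β-catenin array was the lowest. Its day 300 value was 1.91-fold above β-catenin day 3, short of 2-fold. A second Acss2 probe set, with the _a suffix, gave 119.8, 126.8, 453.8 and 156.9. There day 50 was the highest array, 3.79-fold above β-catenin day 3, 3.58-fold above eGFP day 3 and 2.89-fold above day 300. Day 50 was the lowest array for 5 of the 9 fatty acid genes (55.6%), beside 24.5% of all genes, and day 300 for 3.

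By their brightest probe sets, sterol export and transport genes stayed within 2-fold on nearly all arrays. Abca1, the exporter of cholesterol to lipid-poor apolipoprotein, gave 105.0 with β-catenin, 95.3 with eGFP, 53.4 at day 50 and 78.5 at day 300, all close to the floor. Abcg1, which exports cholesterol to lipoprotein particles, gave 400.0, 369.2, 426.8 and 298.9. A dimmer Abcg1 probe set gave 109.4, 61.1, 58.1 and 52.1, 2.10-fold lower at day 300 than on β-catenin day 3. Npc1, the membrane protein that releases cholesterol from lysosomes, gave 95.6, 82.7, 135.9 and 150.0, with both DKmix arrays above both day 3 arrays by less than 2-fold. Stard4, a sterol carrier, gave 501.1, 553.4, 788.1 and 682.3, again with both DKmix values above both day 3 values. Another Stard4 probe set had that order too, but a further one gave 344.4, 498.5, 444.9 and 264.8, with day 300 the lowest.

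Npc2, the soluble lysosomal partner of Npc1, was the exception among the brightest probe sets. Its brightest probe set gave 3089 with β-catenin, 3778 with eGFP, 10542 at day 50 and 3197 at day 300, 3.41-fold higher at day 50 than on β-catenin day 3. A second Npc2 probe set of like brightness gave 2531, 3525, 3255 and 4000, a day 50 log2 ratio of 0.36. A dimmer one gave 119.2, 55.7, 159.1 and 224.5, with day 300 the highest and β-catenin 2.14-fold above eGFP at day 3. The day 50 peak thus rests on 1 probe set.

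**Figure D3:**
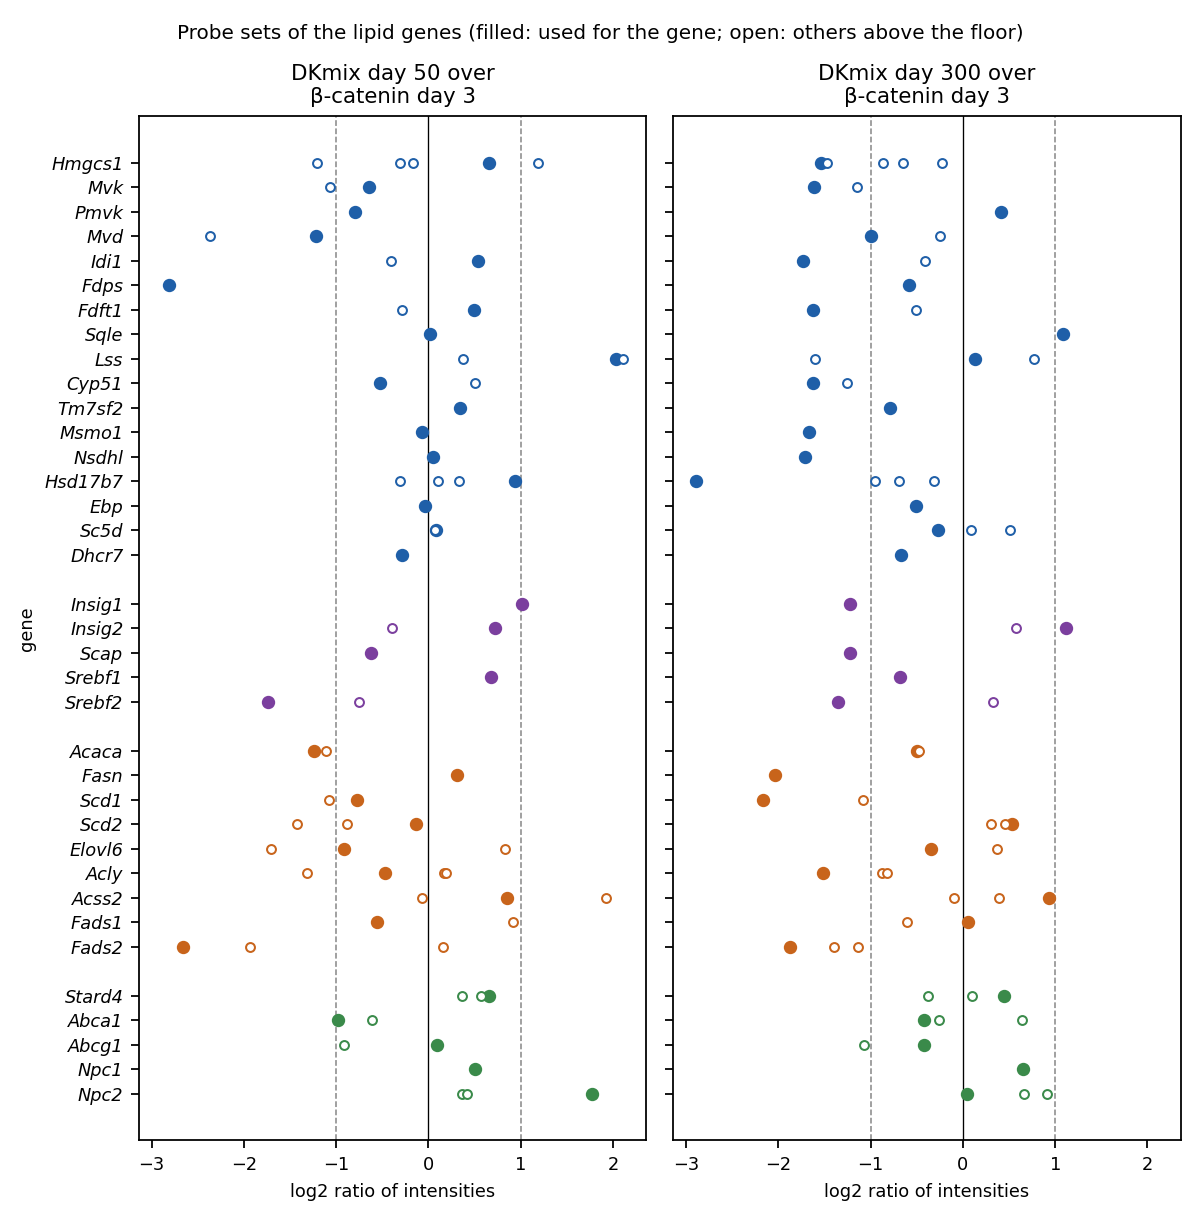
Log2 ratios of every probe set above the floor for DKmix day 50 (left) and day 300 (right) over β-catenin day 3, with the probe set used for the gene filled and the others open. A value under the floor was set to it, so a point with 1 array under the floor is a bound. At day 300 the Scd1, Fads2, Acly and Hmgcs1 probe sets all lie left of 0, the Scd2 probe sets lie right of it, and the Srebf2 probe sets lie on both sides.

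At day 50 the lipid genes by their brightest probe sets had a median log2 ratio of -0.01 against β-catenin day 3. Of 36, 3 were 2-fold or more higher (Lss, Insig1 and Npc2), beside 16% of all measured genes, and 5 were lower (Fdps, Mvd, Srebf2, Acaca and Fads2), beside 15.7%. These shares, 8.33% and 13.9%, do not exceed those of all genes. The sterol synthesis median was 0.02 and the fatty acid median -0.56, beside 0.07 over all genes. Of the 9 fatty acid genes 7 lay below 0, beside 6495 of 13749 over all genes. With the second brightest probe set the medians were -0.29 (sterol) and -1.21 (fatty acid), and 1 lipid gene was higher and 9 lower. Over all genes that probe set gave 934 higher and 1002 lower of 6193. On the hybridisation control scale the median of all genes was -0.73, and 1 lipid gene was higher and 17 lower, beside 696 higher and 5583 lower over all genes, with a sterol median of -0.92. Against eGFP day 3, an array close to it in the Gapdh ratio (4.96 at day 50 against 4.14) but not in that of β-actin (3.41 at day 50 against 1.83), DKmix day 50 had 3 higher, the same 3 genes, beside 15.5%, and 7 lower, beside 15%. The 7 were Pmvk, Mvd, Fdps, Srebf2, Acaca, Elovl6 and Fads2, and 2 of them, Pmvk and Elovl6, were not past 2-fold against β-catenin day 3. On the hybridisation control scale 1 was higher and 12 were lower, beside 1025 and 3715 over all genes. These comparisons share the DKmix day 50 array.

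Between the DKmix arrays, 15 of 36 genes were 2-fold or more lower at day 300 than at day 50, beside 15.8% of all measured genes, and 3 were higher (Fdps, Pmvk and Sqle), beside 15.1%. The sterol synthesis genes had 9 of 17 lower and a median log2 ratio of -1.10, beside -0.14 over all genes. Averaging every probe set of a gene gave -0.53 in its place, which became -0.43 without _s, _x and _a probe sets. With the second brightest probe set the sterol median was -0.24. Of the lipid genes that have one, 5 were then lower, beside 882 of 5828 over all genes. Hsd17b7, Fasn and Idi1 had the largest ratios by the brightest probe sets, 14.2-fold, 5.09-fold and 4.80-fold, but the next Hsd17b7 probe set, without the _x suffix, gave 2.44-fold. Hmgcs1 and Fdft1 had log2 ratios of -2.20 and -2.12 by the brightest probe sets and -0.27 and -0.22 by the next. The next probe sets of Cyp51 and Lss gave -1.76 and at most -1.97. By their brightest probe sets the 9 fatty acid genes split, with 3 lower (Fasn, Scd1 and Acly). The other 6 lay between 0.08 and 0.79 on the log2 scale, none past 2-fold. The second brightest probe sets of Fads1 and Acss2 gave -1.52 and -1.53, and those of Scd2 and Elovl6 gave 1.88 and 2.07. That of Acly gave 0.43, against -1.05 by the brightest. The median of the 9 genes was 0.57, which turned to -0.70 when all probe sets were averaged. The pair shares the day 300 array with the comparison to β-catenin day 3, and its Gapdh ratios differ.

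**Figure D4:**
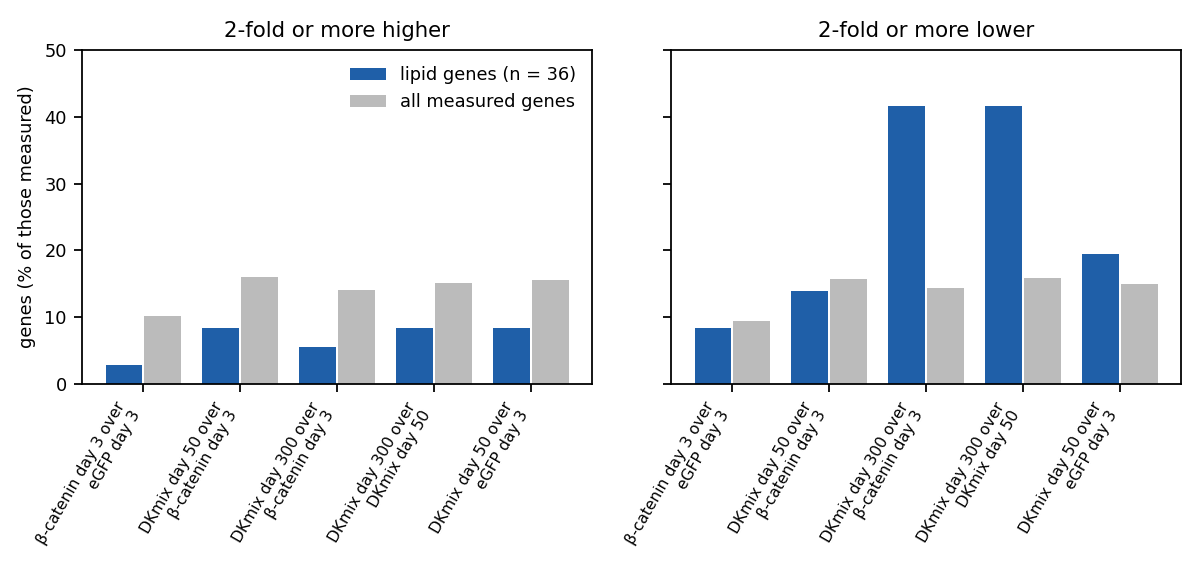
Share of genes 2-fold or more higher (left) and lower (right) in each comparison, for the 36 lipid genes (blue) and all measured genes (grey). The lipid genes reach 41.7% lower in both comparisons that have DKmix day 300 on top, against 14.4% and 15.8% of all genes, and lie below all genes in every higher panel bar.

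At day 3, β-catenin and eGFP cells differed little in these genes by the brightest probe sets. Of 36, 1 was 2-fold or more higher with β-catenin (Fdps, 2.18-fold), beside 10.2% of all measured genes. Lower with β-catenin were 3, beside 9.41%: Pmvk at 3.35-fold, Tm7sf2 at 2.30-fold and Srebf1 at 2.19-fold. The sterol synthesis median was -0.13 and the fatty acid median -0.02, beside -0.01 over all genes. On the hybridisation control scale, where the median of all genes was 0.34, both medians turned positive, to 0.27 and 0.38, and 4 genes were higher and 1 lower, beside 3116 and 993 over all genes. With the second brightest probe set these medians were 0.21 and 0.72, beside 0.07 over all genes. There 6 genes were higher and 1 lower, beside 829 and 515 of 5995 over all genes, so the small difference depends on the probe sets used. The eGFP array had the higher Gapdh ratio and the higher neutrophil marker sum, whose part in these ratios was not tested.

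A list of 46 related genes outside the members, of which 41 had a probe set, was read in the same way. At day 300 against β-catenin day 3, 6 of 36 measured were 2-fold or more higher, beside 14% of all genes, and 6 lower, beside 14.4%, with a median of -0.22. At day 50, 8 of 38 were higher, beside 16% of all genes, and 11 lower, beside 15.7% (median 0.08). In the sterol and isoprenoid part, Ggps1, which makes geranylgeranyl diphosphate, gave 179.3 in day 3 β-catenin cells, 2.63-fold above the 68.2 in eGFP cells, and both DKmix arrays were lower than β-catenin day 3, by 2.02-fold each. Mylip, a ubiquitin ligase gene that oxysterol receptors induce, gave 477.2 at day 50 and 481.0 at day 300, against 155.0 on β-catenin day 3, 3.08-fold and 3.10-fold higher. Vldlr, a lipoprotein receptor, was 2.55-fold lower at day 50 and at least 4.74-fold lower at day 300, and at day 3 gave 229.0 in β-catenin cells against 90.1 in eGFP cells.

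Other related fatty acid genes varied widely. Lpin1, a phosphatidate phosphatase of glyceride synthesis, was 5.66-fold and 5.81-fold higher at DKmix day 50 and day 300 than on β-catenin day 3. Mlycd, which breaks down malonyl-CoA, was 3.65-fold and 2.43-fold higher, and the elongase Elovl7 3.35-fold and 2.13-fold. Elovl1, an elongase of very long chains, gave 14106 at day 50 and 1101 at day 300, against 4966 on β-catenin day 3, and so was 2.84-fold higher and 4.51-fold lower. Fabp5, a fatty acid binding protein, gave 57.5 and 782.9 on the DKmix arrays, against 2245 with β-catenin at day 3. Acsl3, a long-chain acyl-CoA synthetase, was at least 3.06-fold lower on both DKmix arrays. Me1, the malic enzyme that supplies NADPH, gave 1562 at day 300 and 153.5 at day 50, against 222.5 on β-catenin day 3, where eGFP cells had 65.1. At day 3, the acyl-CoA synthetase Acsl4 was 2.29-fold higher and the fatty acid binding protein Fabp4 2.21-fold lower in β-catenin cells than in eGFP cells.

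Disagreement between probe sets of the same gene was the only error measure within these arrays. Taken as the SD of the difference between the log2 ratios of the 2 brightest probe sets, divided by the square root of 2, it was 0.51 over 20 lipid genes for DKmix day 300 over β-catenin day 3, beside 0.63 over 3505 genes. There, 9 lipid genes were past 2-fold with both probe sets above the floor on both arrays. The second probe set had the same direction in 8, the exception being Srebf2, beside 84.8% of all such genes past 2-fold. It was past 2-fold in 4. For DKmix day 300 over day 50 the SD was 0.90 over 18 lipid genes. The second probe set shared the direction in 4 of 6, beside 62.5% of all such genes past 2-fold. On the Ctnnb1 gene, the label check, 2 of 3 probe sets were higher in β-catenin cells than in eGFP cells at day 3, 5.93-fold and 2.26-fold, and the brightest was level at a ratio of 0.95.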

How the data were processed

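RNA was measured in 4 mouse bone marrow samples, 1 Affymetrix array each, and samples were grouped by the titles in the labels. The authors deposited 1 linear intensity for each probe set, from MAS5 according to the submitters' processing notes. The MAS5 version is not given in the sources used here. Deposited intensities had a trimmed mean of 150 on every array (2% trimmed at either end), and were set to exactly equal trimmed means. Probe sets were named from the platform annotation given: 34945 outside the controls had 1 gene symbol, 932 had several and 9211 had none here, controls included. Each of 18193 genes was read from its brightest probe set by mean log2 intensity. Intensities under 48.3, the median of all values pooled, were set to that floor, and genes under it on both arrays of a pair were left out of that pair. With 1 array per group no test was possible. The number of arrays limits the precision.

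The members and lists were chosen with earlier results of these data known. Members were named in full where past 2-fold with the brighter array at 4 times the floor or more, and the SREBP regulators always. Related genes were named where past 2-fold in both DKmix over β-catenin day 3 pairs or in β-catenin over eGFP. The alternatives were quantile normalization, lowess centring (fraction 0.3), a scale set on 9 hybridisation control probe sets, floors of 11.0 and 134.6 (percentiles 25 and 75), the mean of all probe sets, leaving out probe sets with the suffix _s, _x or _a, and the second brightest probe set. The ratio calculation was tested on simulated data. Computations used Python 3.11.15, numpy 2.4.6, pandas 2.3.3 and statsmodels 0.14.6.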

Additional observations from a re-analysis of the deposited data

How the results depend on the processing

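Of the 57 ratios past 2-fold among the 36 genes in the 5 comparisons, 57 kept their direction with quantile normalization, lowess centring, the scale set on the hybridisation controls and both other floors, and 56, 54, 48, 57 (lower floor) and 55 (higher floor) stayed past 2-fold. All 36 genes were above the main floor on every array, so the lower floor could not change these ratios. The hybridisation scale moved the ratios of a pair by a common amount, at most 1.04 on the log2 scale. Ratios past 2-fold could therefore hardly turn there, and their kept direction says little. With the mean of all probe sets 54 kept their direction and 39 stayed past 2-fold. Without _s, _x and _a probe sets 53 of 55 kept their direction and 47 stayed past 2-fold. With the second brightest probe set, which 31 had, these were 26 and 14. The spread used to judge class medians was the probe set SD divided by the square root of the number of genes. It treats the genes of a class as independent and holds no variation between arrays or cultures. It thus served only to pick which shifts between settings are listed here. The hybridisation control scale moved the median of all genes to -0.73 at day 50 and -0.90 at day 300 against β-catenin day 3, to 0.34 between β-catenin and eGFP, and to -0.41 for day 50 over eGFP. For DKmix day 300 over β-catenin day 3 it gave a sterol median of -2.04, a fatty acid median of -1.54, 0 genes higher and 26 lower. The mean of all probe sets gave medians of -0.67 and -0.27 and leaving out the suffixed probe sets a sterol median of -0.73, while the second brightest probe set gave 0 higher and 7 lower. For DKmix day 300 over day 50, the mean of all probe sets gave a sterol median of -0.53, which was -0.43 without suffixed ones and -0.24 with the second brightest, which left 5 lower. The mean of all probe sets gave 6 higher there, beside 1596 of 11224 over all genes, and turned the fatty acid median to -0.70. For DKmix day 50 over β-catenin day 3, the hybridisation scale gave medians of -0.92 (sterol) and -1.50 (fatty acid) with 1 higher and 17 lower. The second brightest probe set gave -0.29 and -1.21 with 1 higher and 9 lower. The mean of all probe sets gave a fatty acid median of -0.17, and leaving out suffixed ones 1 higher, beside 2051 of 13375 over all genes. For DKmix day 50 over eGFP day 3, the hybridisation scale gave -0.81 and -0.91 with 1 higher and 12 lower, the second brightest probe set a sterol median of -0.49 and 3 lower, and the mean of all probe sets a fatty acid median of -0.085. For β-catenin over eGFP, the hybridisation scale gave 0.27 and 0.38 with 4 higher and 1 lower. The second brightest probe set gave 0.21 and 0.72 with 6 higher and 1 lower. The mean of all probe sets gave 5 lower, beside 1023 of 11336 over all genes, and leaving out suffixed ones 2 higher, beside 1418 of 13022. Genes lower on both DKmix arrays numbered 3 with quantile normalization, 6 on the hybridisation scale, and 0 with the mean of all or the second brightest probe sets. No share over all genes is given for these counts, so they are not read as a result about the lipid genes. Over all genes, the second brightest probe set gave 773 higher and 791 lower of 5761 for day 300 over β-catenin day 3. It gave 972 and 882 of 5828 for day 300 over day 50, and 934 and 1002 of 6193 for day 50 over β-catenin day 3. For day 50 over eGFP it gave 955 and 785 of 6159, and for β-catenin over eGFP 829 and 515 of 5995.

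Single ratios and small classes also turned. With the mean of all probe sets Fdps became -0.096 for β-catenin over eGFP, Acly 0.60 and Scap 0.44 for day 300 over β-catenin day 3, and the SREBP regulators' median 0.10 for day 300 over day 50. With the second brightest probe set Srebf2 became 0.32 for day 300 over β-catenin day 3 and 0.33 for day 50 over eGFP, and Acly 0.43 for day 300 over day 50. Npc2 became 0.30 for day 300 over day 50 and -0.12 for day 50 over eGFP, both with the second brightest and without suffixed probe sets. The SREBP regulators' median with the second brightest probe set was 0.45 for day 300 over β-catenin day 3, 1.02 for day 300 over day 50, -0.57 for day 50 over β-catenin day 3 and 0.67 for day 50 over eGFP. For day 50 over β-catenin day 3 the hybridisation scale gave -0.26 for the SREBP regulators and -0.43 for the transport genes, whose median was -0.13 with the second brightest, and for day 50 over eGFP it gave the transport genes -0.032. The mean of all probe sets took in probe sets under the floor on all 4 arrays for Acly, Scap and Fdps. The cause of the other differences was not tested. No paired analysis was possible because each group held 1 array, and for the same reason no replicate could be left out. Lowess centring gave no value for the count over both DKmix arrays.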
